A study of Mus musculus with 4 samples.

Results

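The cell cycle genes described here are 38 genes of the G1 to S transition, DNA replication and mitosis, taken by symbol from the 55414 genes of the deposited table. All 38 were found, each as 1 row. They comprised 9 genes of G1 control, 13 genes of DNA replication and nucleotide supply, and 16 genes of mitosis. The RNA came from mouse peritoneal macrophages, phagocytes of the abdominal cavity, cultured for 24 h in 0.5 mg/ml LUP (2 libraries) or in complete medium alone as vehicle (2 libraries). The labels do not spell out LUP and give no strain, age or sex of the mice. Nothing in them states that replicates are different animals or cultures, so p-values measure only the spread between these libraries, which may be technical.

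A cell that leaves rest builds D-type cyclins, which with Cdk4 and Cdk6 inactivate the Rb protein and free E2F factors to switch on replication genes. Replication origins are licensed in G1 when Cdc6 and Cdt1 load the Mcm helicase, and mitotic genes follow later, driven by the MuvB complex bound to a short promoter element called CHR and by the factor NF-Y bound to CCAAT boxes. Resident peritoneal macrophages are mostly at rest and renew themselves slowly by division in the cavity. In bulk RNA, fewer cycling cells and less RNA per cycling cell cannot be told apart.

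Total counts were 23617618 and 22460913 in the LUP libraries, against 19949818 and 23172691 with vehicle. Replicates departed from each other beyond Poisson sampling (chi-square per degree of freedom of 3.499 with LUP, against 2.666 with vehicle). Each library was counted as its own sample, though this spread does not show whether replicates are different animals or cultures. Of the macrophage marker list, 11 of 11 genes passed the filter on low counts. Their summed level was 21849 and 22033 TPM (a length-scaled relative abundance) with LUP and 27685 and 27309 TPM with vehicle. Most of that sum was Lyz2, at 15652 and 15999 TPM with LUP and 22379 and 22088 TPM with vehicle. Markers of other cells were also present. The 12 mesothelial and fibroblast markers summed to 135 and 103 TPM under LUP, against 105 and 119 TPM with vehicle, with 2 called higher and 6 lower of 11 tested. The 6 endothelial markers summed to 36.35 and 36.36 TPM under LUP, against 95.2 and 103 TPM with vehicle. Most of that sum was Vwf, at 30.12 and 32.45 TPM under LUP, against 89.77 and 97.05 TPM with vehicle. Of 3 endothelial markers tested 2 were lower, and Emcn was listed at 0. The 10 neutrophil markers summed to 136 and 130 TPM under LUP, against 101 and 108 TPM with vehicle. Of 4 neutrophil markers tested 2 were higher and 2 lower, and Ly6g, S100a9 and Mpo were listed at 0. The 11 T and NK cell markers summed to 5.81 and 4.44 TPM under LUP, against 1.38 and 3.25 TPM with vehicle (none called of 1 tested), the 10 B cell markers to 4.89 and 2.93 TPM under LUP, against 3.95 and 6.74 TPM with vehicle (none called of 1 tested), and the 9 mast cell and eosinophil markers to 4.45 and 3.03 TPM under LUP, against 10.37 and 8.59 TPM with vehicle (1 lower of 4 tested, with Epx and Prg2 listed at 0). Of the macrophage markers 5 were higher and 3 lower. Adgre1, Csf1r and Itgam rose by 2.28, 1.02 and 0.95 on the log2 scale, and Lyz2, Mertk and Gata6 fell by 0.39, 0.44 and 1.00. Of the other markers S100a8, Col1a1 and Dcn rose by 1.63, 0.46 and 0.27, while Camp was at 2.68 and 2.28 TPM with LUP and was listed at 0 in the vehicle libraries. Csf3r, Cxcr2, Siglecf, Pdgfra, Lrrn4, Krt8, Vwf and Kdr fell by 0.65, 2.49, 2.87, 0.59, 1.93, 1.79, 1.44 and 0.35. The part of these cells in the results below was not tested.

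With LUP, 3 of the 38 cell cycle genes rose (Mki67, Ccnd3 and E2f1), 14 fell and 21 were not called. All 38 passed the filter on low counts. Calls were made by edgeR's quasi-likelihood test at an adjusted p under 0.05, with Benjamini-Hochberg adjustment over all 13355 genes tested. Over all of those genes 27.1% were called higher and 23.7% lower, against 7.89% and 36.8% of the cell cycle genes. The median log2 fold change, LUP over vehicle, was -0.20 over the cell cycle genes and 0.00 over all genes tested. Most changes were small, with a median size of 0.29 on the log2 scale over the cell cycle genes and 0.30 over all genes. The share of all calls that were higher was 53.37% with the TMM scaling used here and 41.36% after quantile normalization.

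**Figure D1:**
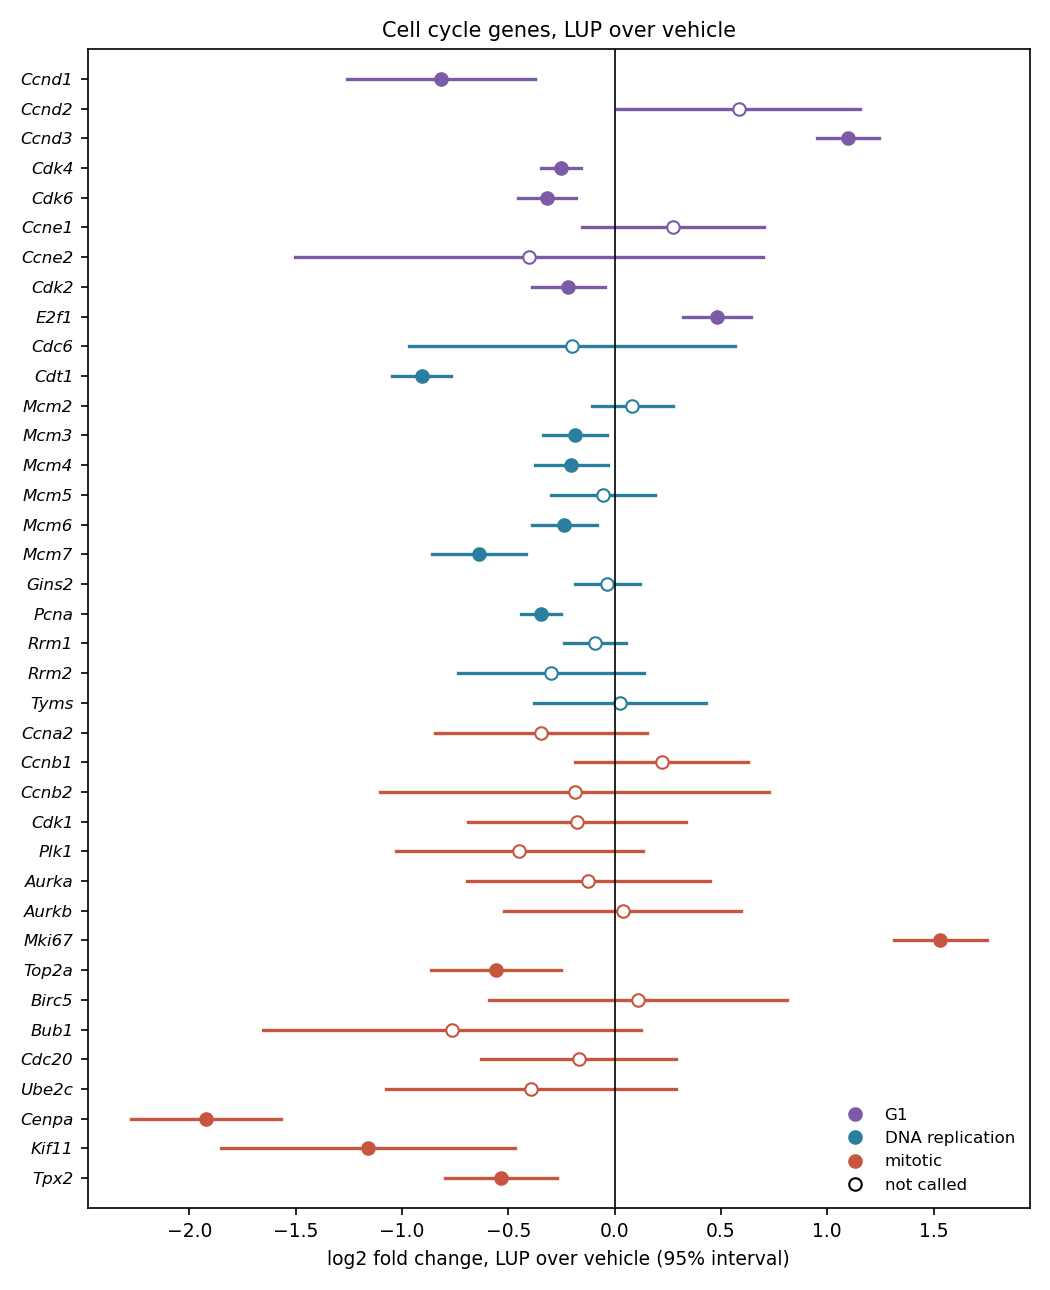
Log2 fold change, LUP over vehicle, of each cell cycle gene with its 95% interval from the edgeR fit, ordered by role; filled points passed the test and open points did not. Mki67 and Ccnd3 lie furthest to the right at 1.53 and 1.10, and Cenpa furthest to the left at -1.92.

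The promoters of the mitotic genes that moved most are shown here because genes with the same promoter elements moved in opposite directions. Promoter windows of 220 bases before to 30 bases after the start were taken from the RefSeq table for build GRCm38.p6, which held 32 entries for 30 of the 38 genes. Each line gives 1 gene of the mitotic class that was called, changed by at least 0.5 on the log2 scale and had a single entry. Capitals mark the CHR element (TTTGAA, or TTCAAA on the other strand) and the CCAAT box (CCAAT, or ATTGG on the other strand).
Mki67, chr7:135716350-135716599, minus strand: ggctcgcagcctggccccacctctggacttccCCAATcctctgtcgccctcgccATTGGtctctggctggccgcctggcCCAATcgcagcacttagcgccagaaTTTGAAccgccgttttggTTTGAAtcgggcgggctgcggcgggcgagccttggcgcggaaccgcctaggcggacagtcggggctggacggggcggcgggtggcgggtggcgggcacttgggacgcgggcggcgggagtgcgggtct
Cenpa, chr5:30666666-30666915, plus strand: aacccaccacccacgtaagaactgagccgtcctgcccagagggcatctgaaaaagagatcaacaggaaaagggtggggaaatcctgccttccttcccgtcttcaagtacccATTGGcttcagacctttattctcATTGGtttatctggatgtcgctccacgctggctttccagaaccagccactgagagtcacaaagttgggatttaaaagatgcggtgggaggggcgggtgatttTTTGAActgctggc
Top2a, chr11:99024160-99024409, minus strand: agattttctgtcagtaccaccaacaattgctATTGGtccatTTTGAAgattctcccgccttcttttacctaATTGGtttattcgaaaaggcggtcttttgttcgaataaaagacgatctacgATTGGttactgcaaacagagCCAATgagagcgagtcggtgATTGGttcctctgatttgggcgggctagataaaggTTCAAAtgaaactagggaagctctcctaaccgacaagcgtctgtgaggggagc
Kif11, chr19:37376162-37376411, plus strand: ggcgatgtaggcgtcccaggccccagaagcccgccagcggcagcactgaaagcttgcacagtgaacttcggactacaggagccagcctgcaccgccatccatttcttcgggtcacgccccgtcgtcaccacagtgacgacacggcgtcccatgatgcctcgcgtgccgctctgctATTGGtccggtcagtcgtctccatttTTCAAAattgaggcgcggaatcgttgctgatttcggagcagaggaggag

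All 4 windows held at least 1 CHR element and at least 1 CCAAT box. The Mki67 window had 2 CHR elements, at -116 and -98 from the start (first base of the match), and CCAAT boxes at -188, -166 and -141. In Cenpa the CHR lay at 17 bases after the start, and in Top2a and Kif11 the nearest lay at -23 and -19. Among the 13 mitotic genes with an entry, 8 held a CHR element (Mki67, Cenpa, Top2a, Kif11, Cdk1, Ccnb2, Cdc20 and Ube2c) and 12 held a CCAAT box. Over all 32851 promoter windows of the same length the shares were 15.16% and 33.46%. None of the 6 G1 genes and 1 of the 11 replication genes (Mcm2) held a CHR. A canonical E2F site (TTTGGCGC, TTTCCCGC, TTTGCCGC or TTTCGCGC, either strand) was found in 5 of the 11 replication genes (Cdc6, Mcm3, Mcm5, Mcm6 and Mcm7), in Cdk2 among the G1 genes and in Cdk1 among the mitotic genes, and in 1.99% of all windows. In Mcm5 and Mcm6 a pair of these E2F spellings overlapped each other on opposite strands, and 1 pair of matches to different elements overlapped in the windows of these genes. The Cdt1 window held no match to the 3 elements as spelled here. A match is a description of the letters and not of binding.

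Of the 16 mitotic genes 1 was higher and 4 lower (6.25% and 25%, against 27.1% and 23.7% of all genes tested). Mki67, which encodes a protein that coats mitotic chromosomes and is widely used as a mark of proliferation, was the only one that rose. It had 1148 and 882 counts in the LUP libraries, against 269 and 404 counts with vehicle, or 7.04 and 5.52 TPM under LUP, against 2.00 and 2.63 TPM with vehicle. Both LUP libraries lay above both vehicle libraries, and replicates of each group also differed visibly. The fold was 2.89 (95% interval 2.49 to 3.37, edgeR adjusted p = 3.39e-10). Over all genes tested, 4.35% were called higher by at least as much. Its counts were whole numbers in all 4 libraries (within 0.001), so no fractional sharing of reads was visible, and no other annotated exon overlapped its exons.

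Cenpa, the histone H3 variant that marks centromeres, had the largest fall of the 38 genes. It stood at 3.28 and 2.92 TPM under LUP, against 12.94 and 13.69 TPM with vehicle. The groups were far apart and the spread within each was small. The log2 fold change was -1.92 (SE 0.168, edgeR adjusted p = 1.33e-08), and 1.34% of all genes tested were called lower by at least as much. Its expected counts were 58.02 and 62.00 with LUP, against 199.2 and 238.0 with vehicle.

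Other genes of chromosome structure and the spindle fell by less. Kif11, the motor that pushes spindle poles apart, had 29 and 21 counts in the LUP libraries, against 40 and 68 with vehicle, a log2 fold change of -1.16 (SE 0.328, adjusted p = 0.00629). Without vehicle replicate 2 it was -0.86 and was not called (adjusted p = 0.139). Top2a, the topoisomerase that untangles replicated chromosomes, had 167 and 147 counts in the LUP libraries, against 178 and 267 with vehicle. It fell by 0.56 on the log2 scale (adjusted p = 0.00336), and without vehicle replicate 2 by 0.37 (adjusted p = 0.105), no longer called. Limma on log2(TPM + 1) did not call it either (adjusted p = 0.0541). Tpx2, which activates the Aurora A kinase on the spindle, had 174 and 161 counts in the LUP libraries, against 210 and 255 with vehicle, with no overlap between the groups. It fell by 0.53 (adjusted p = 0.0016) and was called under each of the 12 alternative settings.

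**Figure D2:**
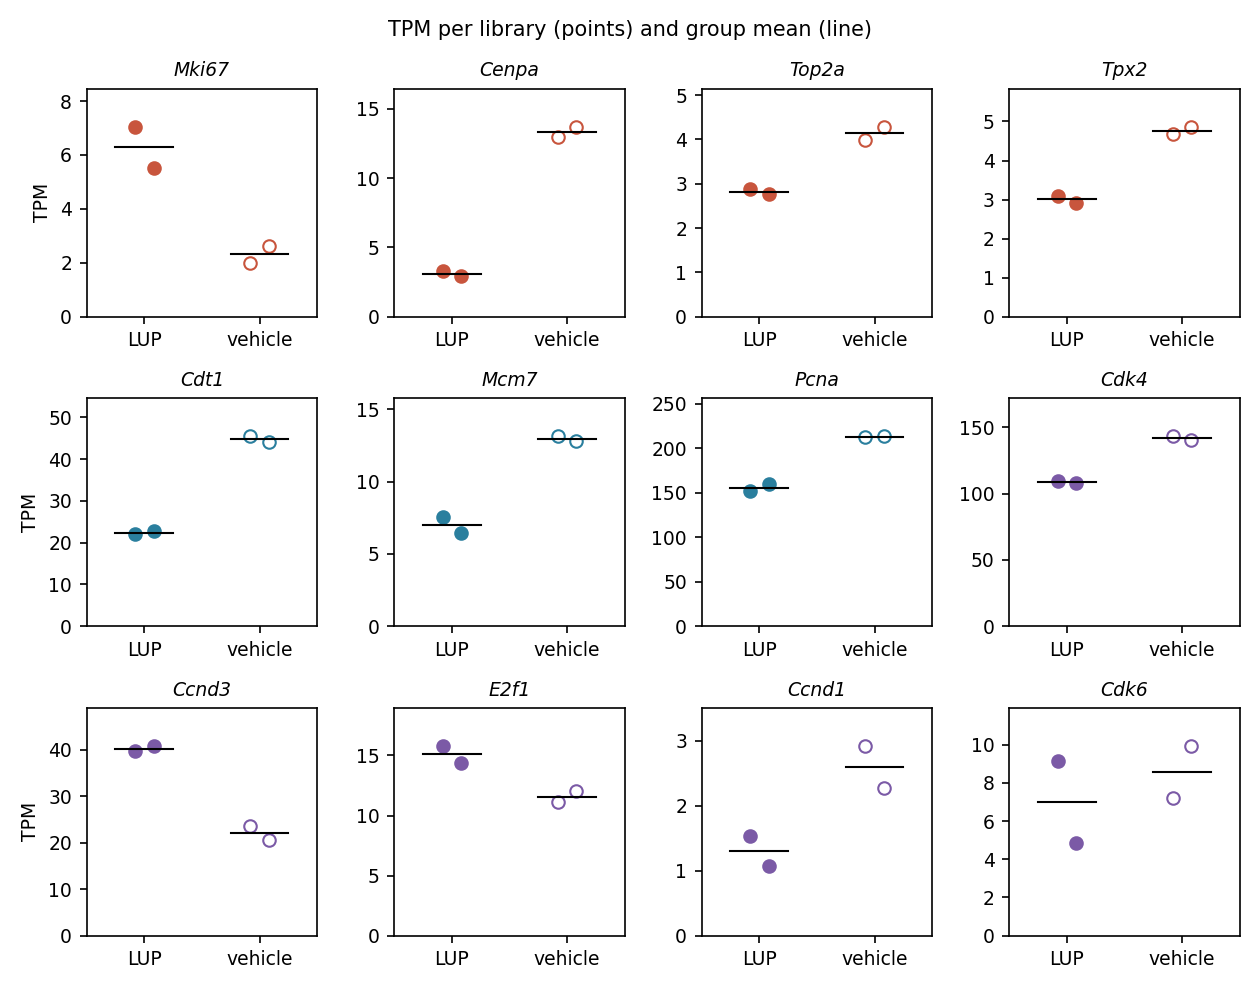
TPM in each library (points) and group mean (line) for 12 cell cycle genes, with LUP on the left and vehicle on the right of each panel and axes that start at 0. Mki67, Ccnd3 and E2f1 were higher in both LUP libraries than in both vehicle libraries; the others were lower in both, apart from Cdk6, whose groups overlapped in TPM.

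The kinases and cyclins that start mitosis were expressed at low levels and none of the 7 was called in either direction. Over all genes tested 27.1% were called higher and 23.7% lower. With so few genes and counts, the lack of calls does not show that these genes were unchanged. Cdk1, the kinase that drives entry into mitosis, had 57 and 77 counts in the LUP libraries, against 73 and 72 with vehicle (fold 0.88, 95% interval 0.62 to 1.26). Its partner cyclins, Ccnb1 and Ccnb2, had 109 and 94, and 41 and 14 counts in the LUP libraries, against 72 and 95, and 23 and 37 counts with vehicle. The groups overlapped in the unscaled counts of each of these genes, and in the TPM of Ccnb1 and Ccnb2. Cdk1 did not overlap in TPM, at 7.70 and 8.63 under LUP, against 11.75 and 9.56 with vehicle. Limma on log2(TPM + 1) did not call it (adjusted p = 0.109). For Cdk1 the highest ratio of expected count to TPM, scaled to each library, exceeded the lowest by 1.237 times. Its TPM thus moved apart from its counts.

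The interval of the Ccnb1 fold ran from 0.88 to 1.55 and that of Ccnb2 from 0.47 to 1.65. Folds within those bounds are compatible with these libraries. Ccna2, a cyclin of S phase and early mitosis, had 81.6 and 54.03 expected counts in the LUP libraries, against 66.9 and 99.5 with vehicle. Exosc9 covers 12.5% of the exon bases of Ccna2 on the other strand. Plk1, a kinase of spindle assembly and exit, had 77 and 44 counts in the LUP libraries, against 89 and 67 with vehicle (log2 fold change -0.45, adjusted p = 0.191). This gene was called lower without LUP replicate 1 (-0.85, adjusted p = 0.024) and without vehicle replicate 2 (-0.75, adjusted p = 0.0235), but stood at -0.14 without LUP replicate 2 (adjusted p = 0.721) and at -0.10 without vehicle replicate 1 (adjusted p = 0.832). The Aurora kinase genes, whose products act at the spindle poles (Aurka) and at centromeres and the midzone (Aurkb), had 50 counts in each LUP library, against 41 and 64 with vehicle (Aurka), and 59 and 56 with LUP, against 41 and 67 with vehicle (Aurkb).

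The remaining mitotic genes were likewise not called. Birc5, the survivin subunit of the Aurora B complex, had 34 and 37 counts in the LUP libraries, against 30 and 33 with vehicle (fold 1.08, 95% interval 0.66 to 1.75). Bub1, a kinase of the spindle checkpoint, had 16 and 18 counts in the LUP libraries, against 32 and 23 with vehicle (log2 fold change -0.77, adjusted p = 0.144, and -0.38 without vehicle replicate 1, adjusted p = 0.666). The groups did not overlap in the unscaled counts of either gene, though they lay close. Birc5 overlapped in TPM, at 2.68 and 2.90 under LUP, against 2.86 and 2.65 with vehicle. Bub1 did not, at 0.39 and 0.35 TPM under LUP, against 0.74 and 0.46 with vehicle. Cdc20 and Ube2c, an activator and a ubiquitin-conjugating enzyme of the anaphase-promoting complex, had 69 and 79, and 35 and 28 counts in the LUP libraries, against 70 and 90, and 39 and 40 counts with vehicle. Over the 16 mitotic genes the summed counts were 2205 and 1824 with LUP, against 1473 and 1919 with vehicle. Without Mki67 they were 1057 and 942 with LUP, against 1204 and 1515 with vehicle. Without Mki67 and Cenpa they were 999 and 879.9 with LUP, against 1005 and 1277 with vehicle. LUP replicate 1 and vehicle replicate 1 were thus nearly equal only before scaling to library size, with 23617618 and 19949818 total counts. Summed TPM allows for library size and weighs long genes less. On that scale the mitotic genes stood at 46.9 and 42.5 with LUP, against 60.0 and 62.1 with vehicle. Without Mki67 and Cenpa the sums were 36.5 and 34.05 TPM under LUP, against 45.05 and 45.8 TPM with vehicle.

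**Figure D3:**
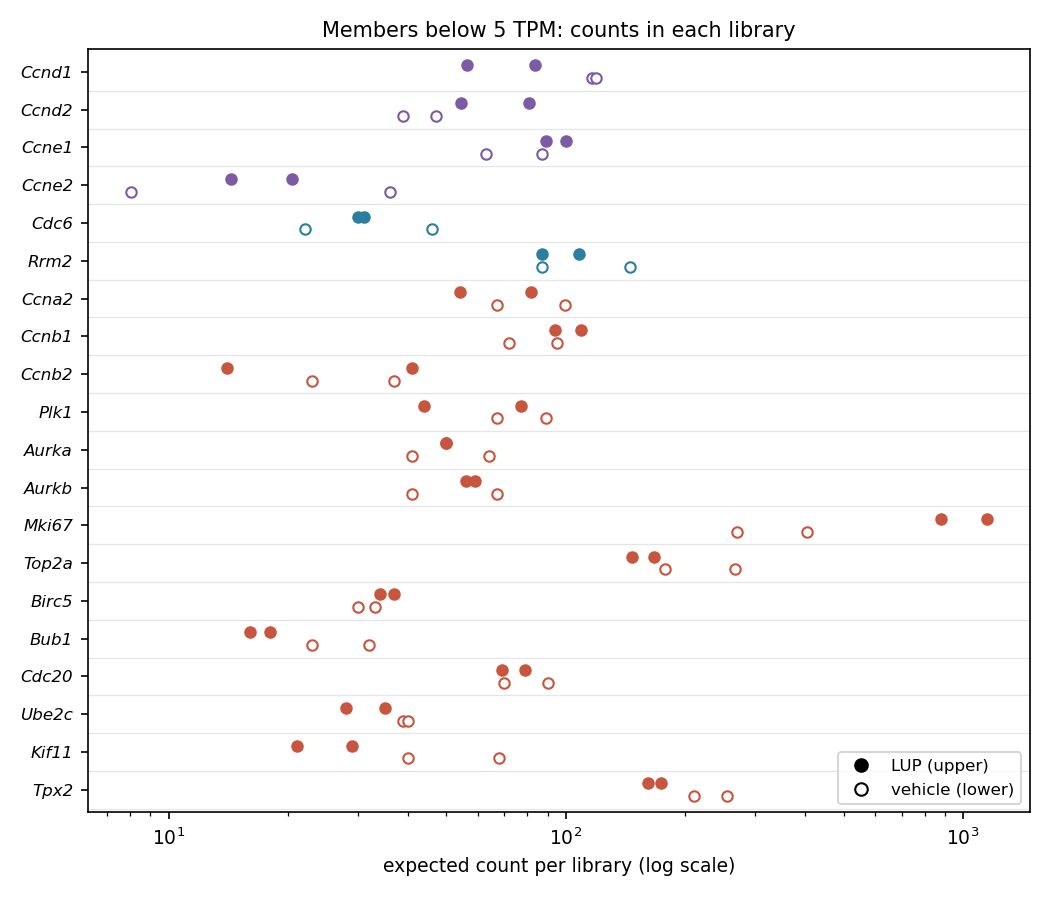
Expected counts per library (log scale) of the 20 cell cycle genes below 5 TPM on the mean of the 4 libraries, with LUP as filled upper points and vehicle as open lower points; purple marks G1, blue replication and red mitotic genes. Mki67 stands apart with 882 and 1148 counts with LUP, while most others overlap between the groups or lie close. The counts are not scaled to library size.

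Among the replication genes 6 of 13 fell and none rose, where 23.7% of all genes tested were lower and 27.1% higher. The calls of 3 of the 6 (Mcm3, Mcm4 and Mcm6) were lost with DESeq2. The largest fall was in Cdt1, the licensing factor that brings the Mcm helicase to origins, which stood at 21.97 and 22.87 TPM under LUP, against 45.43 and 43.98 TPM with vehicle. The replicates lay close together and the groups did not overlap. The fold was 0.53 (95% interval 0.48 to 0.59, edgeR adjusted p = 8.85e-10), and 5.81% of all genes tested were called lower by at least as much. Cdc6, which loads the helicase together with Cdt1, was near the limit of counting with 30 and 31 counts in the LUP libraries, against 22 and 46 with vehicle, and was not called (95% interval of the fold 0.51 to 1.48).

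The Mcm genes encode the 6 subunits of the replicative helicase, which assemble in equal amounts. Mcm7 stood at 7.52 and 6.41 TPM under LUP, against 13.12 and 12.79 TPM with vehicle, a log2 fold change of -0.64 (SE 0.105, adjusted p = 4.74e-05). Its exons overlap Ap4m1 and Cops6 on the other strand and host 2 microRNA genes, Mir25 and Mir93, and the labels do not state that counting used the strand. Mcm3 had 864 and 926 counts in the LUP libraries, against 924 and 1028 with vehicle. In TPM it stood at 26.45 and 28.69 under LUP, against 33.54 and 31.96 with vehicle. Mcm4 had 441 and 389 counts in the LUP libraries, against 428 and 486 with vehicle. Its TPM were 8.16 and 7.19 under LUP, against 9.62 and 9.32 with vehicle. For Mcm3 and Mcm4 the groups overlapped in counts not scaled to library size, and did not overlap in TPM. Mcm6 had 727 and 777 counts in the LUP libraries, against 805 and 891 with vehicle, without overlap. After scaling to library size, Mcm3, Mcm4 and Mcm6 fell by 0.19, 0.20 and 0.24 on the log2 scale (adjusted p = 0.035, 0.0482 and 0.0113).

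These small falls did not hold under every setting, and with DESeq2 none of the 3 was called (adjusted p = 0.148, 0.262 and 0.0772). Without LUP replicate 1 the log2 fold changes of Mcm3 and Mcm6 were -0.09 and -0.14 (adjusted p = 0.391 and 0.160), and without vehicle replicate 1 they were -0.15 and -0.19 (adjusted p = 0.151 and 0.0636). Mcm4 was not called without LUP replicate 2 (adjusted p = 0.189), without vehicle replicate 1 (0.213), without vehicle replicate 2 (0.0999) or with the replicate number as a block (0.0595). Mcm2 and Mcm5 were not called, with 438 and 437 counts in the LUP libraries, against 338 and 455 with vehicle for Mcm2, and 304 and 266 with LUP, against 290 and 274 with vehicle for Mcm5. The log2 fold change of Mcm2 was 0.08, and it was -0.00049 after quantile normalization and -0.0047 without vehicle replicate 1. The 6 genes summed to 74.3 and 75.1 TPM under LUP, against 98.1 and 92.3 TPM with vehicle.

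Pcna, the sliding clamp that holds DNA polymerases on their template, was the most abundant of the 38 genes. It stood at 152 and 160 TPM under LUP, against 213 TPM in each vehicle library, with no overlap, and fell by 0.35 on the log2 scale (SE 0.0453, adjusted p = 3.11e-06). Gins2, a subunit of the active helicase, had 589 and 530 expected counts in the LUP libraries, against 511 and 586 with vehicle and was not called. Its level is uncertain, since 67.3% of its annotated exon bases also lie in exons of Gse1 on the other strand. The enzymes of nucleotide supply were not called. Rrm1 and Rrm2, the large and small subunits of ribonucleotide reductase, had folds of 0.94 (95% interval 0.85 to 1.04) and 0.81 (0.60 to 1.10). Rrm1 had 622 and 600.3 expected counts in the LUP libraries, against 571 and 676 with vehicle. Rrm2 had 87 and 108 counts in the LUP libraries, against 87 and 145 with vehicle, and was called lower without vehicle replicate 1 (log2 fold change -0.52, adjusted p = 0.0479). Its log2 fold change was -0.51 without LUP replicate 2 (adjusted p = 0.0633), -0.10 without LUP replicate 1 (adjusted p = 0.744) and -0.019 without vehicle replicate 2 (adjusted p = 0.964). Tyms, the thymidylate synthase, had 118 and 91.7 expected counts in the LUP libraries, against 81.7 and 116 with vehicle.

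**Figure D4:**
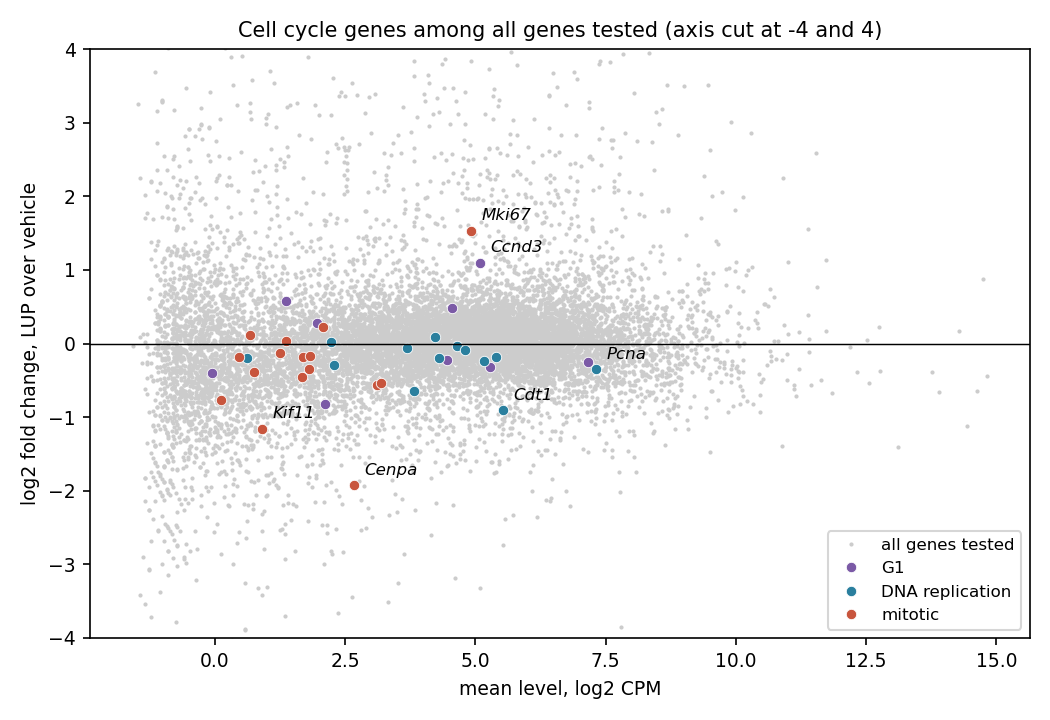
Log2 fold change, LUP over vehicle, against mean level (log2 CPM) for the 13355 genes tested (grey) and the cell cycle genes (coloured by class); the vertical axis is cut at -4 and 4, which leaves out 129 genes. Most mitotic genes sit at low levels. Their median log2 fold change is -0.27, with Mki67 furthest above 0 and Cenpa furthest below.

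Genes of G1 control went both ways, with 2 of 9 higher and 4 lower (22.2% and 44.4%, against 27.1% and 23.7% of all genes tested). The 3 D-type cyclins, which pair with Cdk4 and Cdk6, differed from each other. Ccnd3 stood at 39.60 and 40.78 TPM under LUP, against 23.49 and 20.54 TPM with vehicle, with a wide gap between the groups. It rose 2.14-fold (95% interval 1.93 to 2.36, edgeR adjusted p = 1.03e-10). Bysl covers 4.1% of the exon bases of Ccnd3 on the other strand. Ccnd1 had 83.7 and 56.4 expected counts in the LUP libraries, against 116 and 119 with vehicle and fell by 0.82 on the log2 scale (SE 0.210, adjusted p = 0.00308). Ccnd2 had 80.7 and 54.3 expected counts in the LUP libraries, against 39 and 47 with vehicle (log2 fold change 0.58, adjusted p = 0.0823).

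Ccnd3 was thus the most abundant D-type cyclin in every library on the TPM scale, which allows for gene length, with at most 1.53 TPM for Ccnd1 and 1.31 TPM for Ccnd2 in a LUP library. Ccnd2 was called higher without LUP replicate 2 (log2 fold change 0.81, adjusted p = 0.0316) and after quantile normalization (0.61, adjusted p = 0.0493), and was at 0.32 without LUP replicate 1 (adjusted p = 0.498). Of the exon bases of Ccnd1, 23.4% also lie in exons of LTO1 on the other strand. Its call was lost on log2(TPM + 1) values with limma (adjusted p = 0.0549).

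The kinase partners fell slightly. Cdk4 stood at 109 and 108 TPM under LUP, against 143 and 140 TPM with vehicle, with no overlap between the groups, and fell by 0.25 on the log2 scale (SE 0.0444, adjusted p = 9.67e-05). Tspan31 covers 19.7% of its exon bases on the other strand. Cdk6 had 823 and 747 counts in the LUP libraries, against 875 and 998 with vehicle, a log2 fold change of -0.32 (adjusted p = 0.00039). In TPM its groups overlapped, at 9.17 and 4.86 with LUP, against 7.20 and 9.94 with vehicle, and limma on log2(TPM + 1) did not call it (adjusted p = 0.493).

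Cdk2, the partner of E-type and A-type cyclins, had 452 and 473 counts in the LUP libraries, against 482 and 548 with vehicle and fell by 0.22 (adjusted p = 0.0318). Its call was lost with DESeq2 (adjusted p = 0.206), without LUP replicate 1 (-0.14, adjusted p = 0.251), without vehicle replicate 1 (-0.19, adjusted p = 0.141) and without vehicle replicate 2 (-0.25, adjusted p = 0.0591). The E-type cyclin genes, which open S phase with Cdk2, were not called. Ccne1 had 100 and 89 counts in the LUP libraries, against 63 and 87 with vehicle. Ccne2 had 20.42 and 14.32 expected counts in the LUP libraries, against 8.02 and 36.06 with vehicle. Its level is uncertain, since 17.4% of its exon bases also lie in exons of Ints8 on the other strand. Ints8 had 443 and 412 expected counts with LUP, against 335 and 391 with vehicle. E2f1, an activator of replication genes, stood at 15.79 and 14.38 TPM under LUP, against 11.14 and 12.02 TPM with vehicle. It rose 1.40-fold (95% interval 1.25 to 1.56, adjusted p = 3.23e-05), while none of the 13 replication genes rose.

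Further genes of the same pathways were counted from lists. Of 47 other replication genes 7 were higher and 6 lower of 47 tested, with a median log2 fold change of -0.13. These are 14.9% and 12.8% of the list, against 27.1% and 23.7% of all genes tested. The largest change was in Dck, deoxycytidine kinase, which salvages nucleosides for DNA synthesis and repair. It stood at 31.97 and 30.30 TPM under LUP, against 6.66 and 6.80 TPM with vehicle, a log2 fold change of 2.32 (SE 0.0709, adjusted p = 1.81e-15). The polymerase subunit genes Pola2 and Pold2 rose by 0.61 and 0.80 (Pold2 overlapped between groups in TPM), and the clamp loader genes Rfc2 and Rfc5 and the polymerase subunit gene Pold3 fell by 0.36, 0.28 and 0.51 on the log2 scale.

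Of 47 other mitotic genes 45 were tested, 6 higher and 6 lower (13.3% in each direction, against 27.1% higher and 23.7% lower of all genes tested), with a median of -0.19. Pttg1, the securin that holds back the separation of chromatids, stood at 49.22 and 59.89 TPM under LUP, against 34.15 and 36.47 TPM with vehicle (log2 fold change 0.78, adjusted p = 4.02e-06). Bub1b, a checkpoint protein related to Bub1, stood at 12.21 and 11.17 TPM under LUP, against 3.29 and 5.85 TPM with vehicle (1.11, adjusted p = 2.34e-07). Both rose, as did the checkpoint gene Bub3, by 0.32. Stmn1, which destabilises microtubules, stood at 11.32 and 9.05 TPM under LUP, against 24.93 and 24.08 TPM with vehicle and fell by 1.16 on the log2 scale (adjusted p = 6e-07). Cdc25b, a phosphatase that activates Cdk1, and Smc4, a condensin subunit, fell by 0.77 and 0.32.

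Upstream regulators went both ways. Of 17 E2F, pocket protein and MuvB genes 16 were tested, with 4 higher and 2 lower. These are 25% and 12.5% of the list, against 27.1% and 23.7% of all genes tested. E2f4, a factor that acts mainly as a repressor in resting cells, and its partner gene Tfdp1 rose by 0.40 and 0.29 on the log2 scale, and E2f5 by 0.53. Rb1, the retinoblastoma gene, fell by 0.55 and Tfdp2 by 1.10. Of 7 Cdk inhibitor genes 1 rose and 3 fell (14.3% and 42.9%, against 27.1% and 23.7% of all genes tested). Cdkn1a, which encodes p21, stood at 86.3 ± 7.76 TPM under LUP, against 40.3 ± 2.35 TPM with vehicle (SD, n = 2 each), and rose by 1.21 on the log2 scale. Cdkn1b and Cdkn2c fell by 0.74 and 1.37, and Cdkn1c by 2.39 (14.84 and 17.67 TPM under LUP, against 93.96 and 85.57 TPM with vehicle).

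The anaphase-promoting complex ends mitosis and also keeps resting cells in G1 with its activator Fzr1. Of its 16 genes 4 were higher and 3 lower (25% and 18.8%, against 27.1% and 23.7% of all genes tested). The ubiquitin-chain enzyme of the complex, Ube2s, and Fzr1 rose by 0.44 and 0.39. Anapc5 rose by 0.24, and Anapc11, Anapc2 and Anapc15 fell by 0.42, 0.22 and 0.29. Of 12 further genes of cyclins and kinases, mostly of transcription, 5 were higher and 3 lower. These are 41.7% and 25% of the list, against 27.1% and 23.7% of all genes tested. Among the 12, Ccnh, Ccnk and Cdk7 rose by 0.49, 0.27 and 0.35. Cdk9, Cdk13 and Ccnt2 fell by 0.45, 0.25 and 0.16 on the log2 scale.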

How the data were processed

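RNA of 4 libraries (2 with LUP, 2 with vehicle) was analysed from 1 table of all genes. The expected counts per gene were estimated and deposited by the authors, unscaled, and the TPM values were computed and deposited by the authors. The tools fastp, HISAT2, StringTie and RSEM are named per the submitters' processing notes. Their versions, the build, the annotation and the strand setting are not given in the sources used here. No use was made of the authors' own comparison.

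Expected counts were rounded and fitted with edgeR 4.0.16 (R 4.3.3): filterByExpr, TMM scaling, treatment as the only term, quasi-likelihood test, Benjamini-Hochberg adjustment over 13355 genes, calls at an adjusted p under 0.05. Standard errors are the log2 fold change over the root of F, and 95% intervals use the fitted degrees of freedom, unadjusted. The test was also run on simulated counts with the same spread for all genes, which does not show how it performs on these libraries. Alternatives used DESeq2 1.42.0 and limma 3.58.1, other scalings, filters and pseudocounts, a replicate block, and leaving out each library.

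The 38 genes and the lists were chosen with earlier results of these data known, and none is independent evidence of a direction. All 38 genes are given. From each other list up to 3 called genes per direction with the highest mean TPM are named. Exon overlaps come from GENCODE M21 (GRCm38) and promoters from RefSeq (GRCm38.p6), which may differ from the build the authors used. Exons of 14 of the 38 genes overlapped exons of another annotated gene, and not all of these are named.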

Additional observations from a re-analysis of the deposited data

How the results depend on the processing

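Of the 17 called cell cycle genes, 9 (Ccnd3, Cdk4, E2f1, Cdt1, Mcm7, Pcna, Mki67, Cenpa and Tpx2) were called in the same direction under all 12 alternatives, and 8 lost the call under at least 1. The log2 fold change of Mki67 ran from 1.13 to 1.73 and that of Cenpa from -2.07 to -1.80. With limma on log2(TPM + 1) or log2(TPM + 0.1), which tested 33 of the 38 genes, 7 genes were lower, against 14 in the count test, and over all genes 1935 and 1920 were higher, against 3621. DESeq2 called 10 lower. Leaving out each library in turn gave 3 to 4 higher and 11 to 13 lower cell cycle genes, and 3161 to 3470 higher and 2692 to 2974 lower genes in all; a lone library was assumed to vary like the other group.

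The replicate numbers are not labelled as shared animals or days, and replicate 1 of the groups did not deviate together (correlation across genes -0.0658). With the replicate block 3 cell cycle genes were higher and 13 lower, and 3534 genes were higher and 3074 lower in all.

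Direction reversed only among genes that were not called. Over the fits that left out 1 library, the log2 fold change ran from -1.03 to 0.89 for Ccne2, -0.54 to 0.28 for Cdc6, -0.0047 to 0.19 for Mcm2, -0.21 to 0.11 for Mcm5, -0.11 to 0.17 for Tyms, -1.09 to 0.35 for Ccnb2, -0.46 to 0.070 for Cdk1, -0.30 to 0.10 for Aurka and -0.17 to 0.30 for Aurkb. Quantile normalization gave -0.00049 for Mcm2. Limma on log2(TPM + 1) and on log2(TPM + 0.1) gave -0.10 and -0.12 for Tyms and -0.094 and -0.12 for Aurkb. The cause was not tested. For genes with few counts, the parts of counting error and of replicate spread in the interval were not separated.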

Other observations

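The TPM of some cell cycle genes moved apart from their counts. The ratio of expected count to TPM, scaled to each library, stands for the transcript length that the authors' estimate assigned to a gene. Over 8310 genes with at least 5 TPM and 50 counts in every library, the highest of the 4 ratios exceeded the lowest by 1.057 times at the median and by 1.348 times at the 95th percentile. It differed by 1.838 times for Ccne2, 1.758 times for Cdk6, 1.654 times for Ccnd2, 1.583 times for Tyms and 1.421 times for Cdc6. None of these 5 genes reached 5 TPM in every library, so they lie outside the genes behind the median and the percentile. For Cdk6 the ratio, relative to its mean, was 0.734 and 1.29 with LUP, against 1.21 and 0.872 with vehicle, so it differed as much within a group as between groups. For Ccnd2 it was 0.840 and 0.845 with LUP, against 1.01 and 1.39 with vehicle. For Mki67, Pcna and E2f1 it differed by 1.006, 1.005 and 1.002 times, so that counts and TPM give the same picture of these genes.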
